A study of Mus musculus with 24 samples.

Results

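The arches of mouse embryos labelled as lacking both copies of Dlx5 were compared with those of wild type embryos, with 4 RNA-seq libraries in each group, or 8 of the 24 libraries of the series. The 4 libraries labelled Dlx5 -/- carried wild type Kat6a (Kat6a +/+), and the 4 wild type libraries were +/+ for both genes. The members were taken by the genotype in the labels. Every library held polyadenylated RNA of the first and second pharyngeal arches of a female embryo of C57BL/6 background, taken at E10.5. The remaining 16 libraries, 4 each of Dlx5 +/-, of Dlx5 +/- with Kat6a +/- (double heterozygous), of Kat6a +/- and of Kat6a -/- embryos, entered the same model, since embryos came from 2 mouse facilities that the labels give as batches. All 4 Dlx5 -/- libraries were of batch 1 and all 4 wild type libraries of batch 2, so the groups themselves cannot separate genotype from facility. The size of the batch effect was estimated from the 12 heterozygous libraries, of which 5 were of batch 1 and 7 of batch 2, and it was subtracted. With genotype in the model, this estimate comes from differences within each heterozygous group, where 1 library stands against 3. Kat6a +/- and Dlx5 +/- each had 1 library of batch 1 and 3 of batch 2. Double heterozygous had 3 of batch 1 and 1 of batch 2. The sources used here do not give how the Dlx5 allele was made, which part of the gene it lacks or from which embryos or litters the replicates came.

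Pharyngeal arches are paired outgrowths on each side of the embryonic throat, in which mesenchyme derived mostly from cranial neural crest lies between an outer ectoderm and an inner endoderm. Dlx genes encode homeodomain transcription factors and sit in the genome as neighbouring pairs. In the mouse arch Dlx1 and Dlx2 are expressed along the whole upper-to-lower axis and Dlx5 and Dlx6 in the lower part, downstream of endothelin signalling, and loss of Dlx5 together with Dlx6 turns lower jaw structures towards upper jaw form.

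Total counts on genes were 11.8 to 12.6 M in the Dlx5 -/- libraries and 11.5 to 28.2 M in wild type libraries, with wild type replicate 1 the deepest and the other 3 at 11.5 to 12.4 M. Markers of the labelled tissue were present in all 8 libraries, with a summed level of the 14 arch mesenchyme genes of 3252 to 3501 CPM in Dlx5 -/- and 2706 to 3277 CPM in wild type libraries. CPM here are counts relative to the TMM-scaled library total, as in edgeR. Wild type replicate 2 stood apart from the other 7 libraries in its neuron and glia markers. The 22 neuron and glia markers summed to 694.6 CPM in it, to 200.4 to 214.7 CPM in the other 3 wild type libraries and to 188.5 to 227.7 CPM in the Dlx5 -/- libraries. Libraries of other genotypes also differed, with a mean log2 CPM of these markers of 4.45, 4.18 and 3.68 in replicate 2 of Kat6a +/-, Dlx5 +/- and Kat6a -/- and of 2.78 to 3.86 in double heterozygous libraries, against 4.28 in wild type replicate 2, 1.03 to 1.31 in the other wild type libraries and 0.76 to 1.12 in the Dlx5 -/- libraries. Dlx5 itself was not lower by gene-level counts. It had 67.5, 58.7, 57.7 and 66.5 CPM in the 4 libraries labelled Dlx5 -/-, against 64.7, 79.0, 64.6 and 69.1 CPM in wild type libraries, a log2 fold change of 0.03 (SE 0.11, edgeR quasi-likelihood adjusted p = 0.947) and of −0.15 without the batch term. The ranges overlapped, and counts summed over a whole gene cannot show the loss of a part of it, so the genotype is given here as the labels state it.

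Of 14506 genes tested, edgeR called 8, or 0.0551%, with a call set at a p under 0.05 after Benjamini-Hochberg adjustment. The 4 that rose in Dlx5 -/- arches were Creb5, Lix1, Zfp862-ps and Postn, and the 4 that fell were Ptprz1, Dlx6os1, Cldn5 and Nudt19, or 0.0276% of the genes tested in each direction. At an unadjusted p under 0.05 679 genes (4.68%) were higher and 767 (5.29%) lower, together 9.97% of all tested. Other tools called more, with 38 genes by DESeq2 (0.284% of those with an adjusted p) and 17 by limma voom (0.117%). The number of calls moved with single libraries. It was 16 without Dlx5 -/- replicate 3, 2 without replicate 1 or 2 of that group and 1 without replicate 4. Among wild type libraries it was 13 without replicate 3, 2 without replicate 1 or 4 and 1 (Dlx6os1) without replicate 2. Leaving out heterozygous libraries gave 0 without double heterozygous replicate 1 or Kat6a +/- replicate 4, 1 to 3 without double heterozygous replicates 2, 3 or 4, Dlx5 +/- replicates 2 or 4 or Kat6a +/- replicate 2, and 14 without Kat6a +/- replicate 3. It was 5 without Kat6a -/- replicate 3. Double heterozygous replicate 1, Kat6a +/- replicate 4 and Dlx5 +/- replicate 4 were each the only library of their batch in their group. Without such a library, its group no longer informs the batch effect.

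Dlx6os1, also called Evf2, is a long noncoding transcript that spans Dlx6 next to Dlx5 (Entrez gene 320038, chromosome 6, 6820543 to 6871627, GRCm38). The 2 RefSeq promoter windows available for it are shown because it was the called gene with the smallest p and lies beside Dlx5. Each runs from 250 bases before to 50 bases after a start. Both lie inside the span of the gene, and no window was available at its upstream end, 6871627. Capitals mark TAATTA, a core sequence bound by Dlx and many other homeodomain proteins. It is its own reverse complement, so a match counts for both strands. Both sequences are on the minus strand and run 5′ to 3′.
Dlx6os1, chr6:6869484-6869783: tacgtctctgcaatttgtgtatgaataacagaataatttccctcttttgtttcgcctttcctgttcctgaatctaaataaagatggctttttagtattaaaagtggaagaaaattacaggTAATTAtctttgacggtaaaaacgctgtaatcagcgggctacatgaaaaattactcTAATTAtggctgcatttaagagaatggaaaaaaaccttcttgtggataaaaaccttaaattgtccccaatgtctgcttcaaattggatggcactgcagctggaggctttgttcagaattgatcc
Dlx6os1, chr6:6861634-6861933: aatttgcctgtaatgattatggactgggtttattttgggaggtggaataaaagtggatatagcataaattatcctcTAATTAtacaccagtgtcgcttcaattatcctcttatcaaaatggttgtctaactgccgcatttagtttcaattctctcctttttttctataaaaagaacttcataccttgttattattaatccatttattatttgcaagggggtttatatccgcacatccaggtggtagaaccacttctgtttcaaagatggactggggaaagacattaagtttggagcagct
The first window held 2 matches and the second 1. Of the 32851 windows in the table, 5.29% held the motif, as did 2.55% of the 14085 windows of genes tested here. Of the 16 called or Dlx family genes, 10 were matched to 13 windows, and no match lay in those of Cldn5, Creb5, Dlx1, Dlx2, Dlx4os, Lix1, Nudt19, Postn and Ptprz1.

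Dlx6os1 had 26.0, 23.8, 26.5 and 24.1 CPM in Dlx5 -/- libraries, against 54.5, 43.2, 54.0 and 43.7 CPM in wild type libraries. All 4 Dlx5 -/- libraries lay below all 4 wild type libraries, with the mean at 0.514 times that of wild type. The log2 fold change was −0.82 with the batch term (SE 0.13, edgeR adjusted p = 0.0116) and −0.96 without it, and the batch coefficient, batch 1 minus batch 2, was −0.15 (SE 0.09). It was the called gene whose difference shrank with the batch term, and the other 7 differences grew. Lower levels were also seen in other genotypes. Double heterozygous libraries had 22.0 to 24.6 CPM in batch 1 (n = 3) and 23.2 CPM in batch 2 (n = 1), Dlx5 +/- libraries had 34.3 CPM in batch 1 (n = 1) and 40.7 to 46.2 CPM in batch 2 (n = 3), and Kat6a -/- libraries, all of batch 2, had 9.58 to 12.2 CPM (n = 4). These groups are compared with the same wild type libraries, so their values are not independent of those for Dlx5 -/-. Across 37 alternative settings the call held in 34, and the log2 fold change stayed between −0.96 and −0.76.

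Dlx6, the partner of Dlx5, overlaps Dlx6os1. It had 35.0, 29.7, 32.1 and 30.7 CPM in Dlx5 -/- libraries, against 25.8, 34.5, 27.9 and 27.2 CPM in wild type libraries (log2 fold change 0.25, SE 0.13, edgeR adjusted p = 0.532). The groups overlapped for Dlx6. Whether the counting used strand is not stated in the sources used here, so how reads were split between Dlx6 and Dlx6os1, or between Dlx1 and Dlx1as, is uncertain.

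Among the other Dlx genes, the Dlx3 and Dlx4 pair on chromosome 11 was lower in every Dlx5 -/- library than in any wild type library, without being called. Dlx3 had 75.6, 80.7, 81.1 and 69.1 CPM in Dlx5 -/- and 94.2, 108.6, 100.8 and 98.4 CPM in wild type libraries (log2 fold change −0.30, SE 0.11, edgeR adjusted p = 0.39). Dlx4 had 2.76, 2.75, 3.47 and 2.58 CPM in Dlx5 -/- and 4.91, 4.99, 4.76 and 3.95 CPM in wild type libraries (log2 fold change −0.75, SE 0.21, edgeR adjusted p = 0.244). Dlx4os, a transcript of the same locus, was at 7.34 to 8.75 CPM in Dlx5 -/- and 11.5 to 12.7 CPM in wild type libraries (log2 fold change −0.39, SE 0.14, edgeR adjusted p = 0.386). Without the batch term it stood at −0.56 and passed the threshold (edgeR adjusted p = 0.0384, but 0.174 with the 8 libraries alone). For these 3 genes the heterozygous libraries of the same batch overlapped those labelled Dlx5 -/-. Kat6a -/- libraries, all of batch 2, were lower still. They had 50.7 to 62.4 CPM of Dlx3, 1.85 to 2.15 CPM of Dlx4 and 5.11 to 6.04 CPM of Dlx4os. Both genotypes are compared with the same wild type libraries.

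The Dlx1 locus showed opposite signs for its transcripts. Dlx1 had 76.4, 67.8, 73.3 and 73.9 CPM in Dlx5 -/- and 66.2, 60.6, 55.3 and 65.3 CPM in wild type libraries (log2 fold change 0.26, SE 0.10, edgeR adjusted p = 0.397). Dlx1as had 8.45, 9.02, 11.2 and 10.2 CPM in Dlx5 -/- and 17.2, 17.8, 20.7 and 24.5 CPM in wild type libraries (log2 fold change −0.66, SE 0.24, edgeR adjusted p = 0.379). Neither was called, although neither pair of groups overlapped. Without the batch term Dlx1as stood at −1.03 and passed the threshold (edgeR adjusted p = 0.0384, and 0.011 with the 8 libraries alone). Within batch 1, where no batch term is needed, Dlx1 in Dlx5 -/- libraries also lay above the 55.3 to 61.7 CPM of the 5 heterozygous libraries, and Dlx1as lay below their 13.0 to 17.1 CPM. Over all genes, 2.94% lay above and 2.82% below those 5 libraries in this way. Kat6a -/- libraries, of batch 2, had 5.17 to 10.6 CPM of Dlx1as, also below wild type. Dlx1, at 39.5 to 46.3 CPM in Kat6a -/- libraries, was below wild type there too. Dlx2 overlapped between groups, at 119.6 to 146.2 CPM in Dlx5 -/- and 114.1 to 145.9 CPM in wild type libraries. Of the 9 Dlx genes and transcripts tested, 1 was called, 5 lay below and 1 above all wild type libraries as measured, and their median log2 fold change was −0.30, against −0.002 over all genes. As measured, 2.29% of all genes lay below and 2.32% above in this way.

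**Figure D1:**
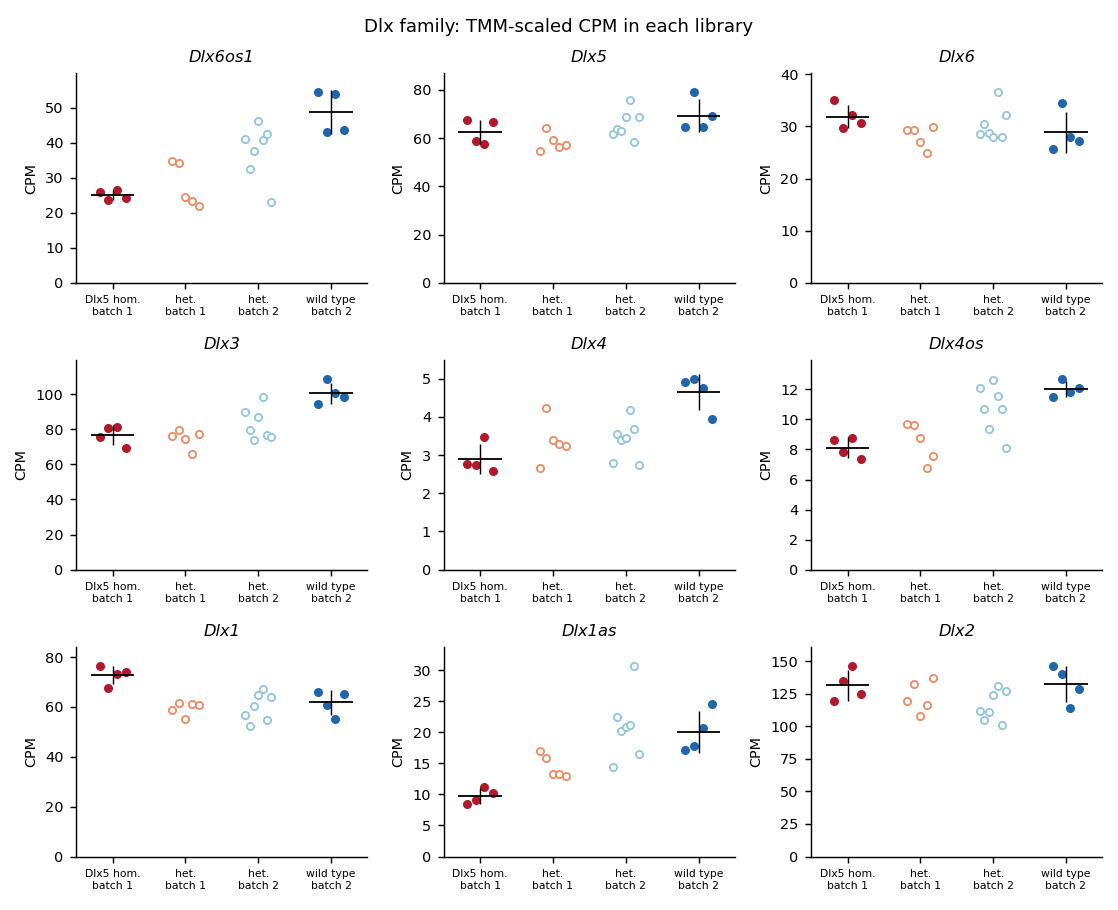
TMM-scaled CPM of 9 Dlx genes and locus transcripts in each library, from left to right Dlx5 homozygous (n = 4, batch 1), heterozygous of any kind in batch 1 (n = 5) and in batch 2 (n = 7), and wild type (n = 4, batch 2); horizontal lines and bars are mean and SD of the filled groups. Dlx6os1, Dlx3, Dlx4, Dlx4os and Dlx1as lie lower in Dlx5 homozygous than in wild type libraries, Dlx1 lies higher, and Dlx5, Dlx6 and Dlx2 overlap.

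The genes that rose included a transcription factor and a matrix protein. Creb5, a leucine zipper transcription factor that binds cyclic AMP response elements, had 4.18, 4.47, 3.14 and 3.31 CPM in Dlx5 -/- libraries, against 2.08, 1.96, 2.59 and 1.85 CPM in wild type libraries (log2 fold change 1.46, SE 0.28, edgeR adjusted p = 0.0488). Without the batch term its difference was 0.83, and the batch coefficient of −0.63 (SE 0.19) made up the remainder. Within batch 1 the Dlx5 -/- libraries overlapped the 2.29 to 4.08 CPM of the heterozygous libraries. Creb5 was likewise higher than wild type in all 7 heterozygous libraries of batch 2, at 3.12 to 6.39 CPM, and it was at 3.53 to 4.98 CPM in Kat6a -/- libraries. Its SE was the largest of the 8 called genes.

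Postn encodes periostin, an extracellular matrix protein of periosteum and periodontal ligament. It had 35.3, 33.0, 38.3 and 34.5 CPM in Dlx5 -/- libraries, against 28.4, 28.8, 28.9 and 27.6 CPM in wild type libraries (log2 fold change 0.51, SE 0.10, edgeR adjusted p = 0.0403; 0.31 without the batch term). Wild type was the narrow group, with an SD of 0.59 CPM, and it lay below the 33.3 to 44.9 CPM of the heterozygous libraries of batch 2 and the 44.1 to 53.9 CPM of Kat6a -/- libraries. Within batch 1 the Dlx5 -/- libraries overlapped the 30.8 to 38.9 CPM of the heterozygous libraries.

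Lix1, named for its expression in the chicken limb bud, had 55.0, 48.2, 43.9 and 46.8 CPM in Dlx5 -/- libraries, against 31.2, 37.7, 38.1 and 35.8 CPM in wild type libraries (log2 fold change 0.73, SE 0.13, edgeR adjusted p = 0.0349; 0.45 without the batch term). Here too wild type lay below the heterozygous libraries of batch 2 (39.6 to 60.8 CPM), and within batch 1 the heterozygous libraries (36.3 to 48.9 CPM) overlapped. Kat6a -/- libraries, also of batch 2, had 34.6 to 48.2 CPM of Lix1 and overlapped wild type. Over all genes, 0.503% lay below and 0.503% above the heterozygous libraries of batch 2 in wild type. The transcribed pseudogene Zfp862-ps had 58.2, 51.4, 61.1 and 58.6 CPM in Dlx5 -/- libraries, against 48.7, 45.9, 44.7 and 43.6 CPM in wild type libraries (log2 fold change 0.64, SE 0.11, edgeR adjusted p = 0.0346; 0.32 without the batch term). Within batch 1 its levels also lay above the 44.7 to 50.1 CPM of the heterozygous libraries. The heterozygous libraries of batch 2, at 48.4 to 67.9 CPM, overlapped wild type and took in the whole Dlx5 -/- range. Whether this pseudogene shares reads with related genes was not tested.

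Of the genes that fell, Ptprz1 encodes a receptor tyrosine phosphatase known from glia and their precursors. It had 7.53, 7.65, 8.50 and 8.63 CPM in Dlx5 -/- libraries, against 18.2, 13.1, 15.7 and 11.6 CPM in wild type libraries (log2 fold change −1.09, SE 0.20, edgeR adjusted p = 0.0349; −0.87 without the batch term). The groups did not overlap, and within batch 1 the Dlx5 -/- libraries also lay below the 9.12 to 14.9 CPM of the heterozygous libraries. The heterozygous libraries of batch 2 had 7.30 to 16.7 CPM and overlapped wild type. Double heterozygous replicate 1, at 7.30 CPM, lay below every Dlx5 -/- library. Wild type replicate 2, the library with the high neuron and glia markers, was not the highest for Ptprz1. Without it the log2 fold change was −1.15 with an edgeR adjusted p of 0.0521, and with the neuron and glia score as a covariate it was −1.08 with an edgeR adjusted p of 0.026. Ptprz1 is itself among the genes averaged in that score, so the covariate cannot separate its difference from neuron and glia content.

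Cldn5 encodes the claudin of endothelial tight junctions. It had 12.6, 13.7, 14.1 and 10.2 CPM in Dlx5 -/- libraries, against 16.6, 17.6, 19.3 and 20.5 CPM in wild type libraries (log2 fold change −0.74, SE 0.15, edgeR adjusted p = 0.0488; −0.54 without the batch term). Within batch 1 it was also below the 14.7 to 17.9 CPM of the heterozygous libraries. The heterozygous libraries of batch 2, at 12.6 to 16.9 CPM, overlapped both groups. In such bulk tissue fewer cells of a type and less RNA per cell cannot be told apart. Nudt19, a peroxisomal hydrolase of coenzyme A, had 21.2, 21.6, 26.9 and 21.0 CPM in Dlx5 -/- libraries, against 27.3, 30.2, 27.3 and 27.2 CPM in wild type libraries (log2 fold change −0.57, SE 0.11, edgeR adjusted p = 0.0488; −0.30 without the batch term). Dlx5 -/- replicate 3 lay close to wild type for Nudt19, and wild type lay above the heterozygous libraries of batch 2 (19.4 to 23.7 CPM). In batch 1 the heterozygous libraries (22.6 to 29.8 CPM) overlapped those labelled Dlx5 -/-. Kat6a -/- libraries, of batch 2, had 24.5 to 28.6 CPM of Nudt19 and overlapped wild type.

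**Figure D2:**
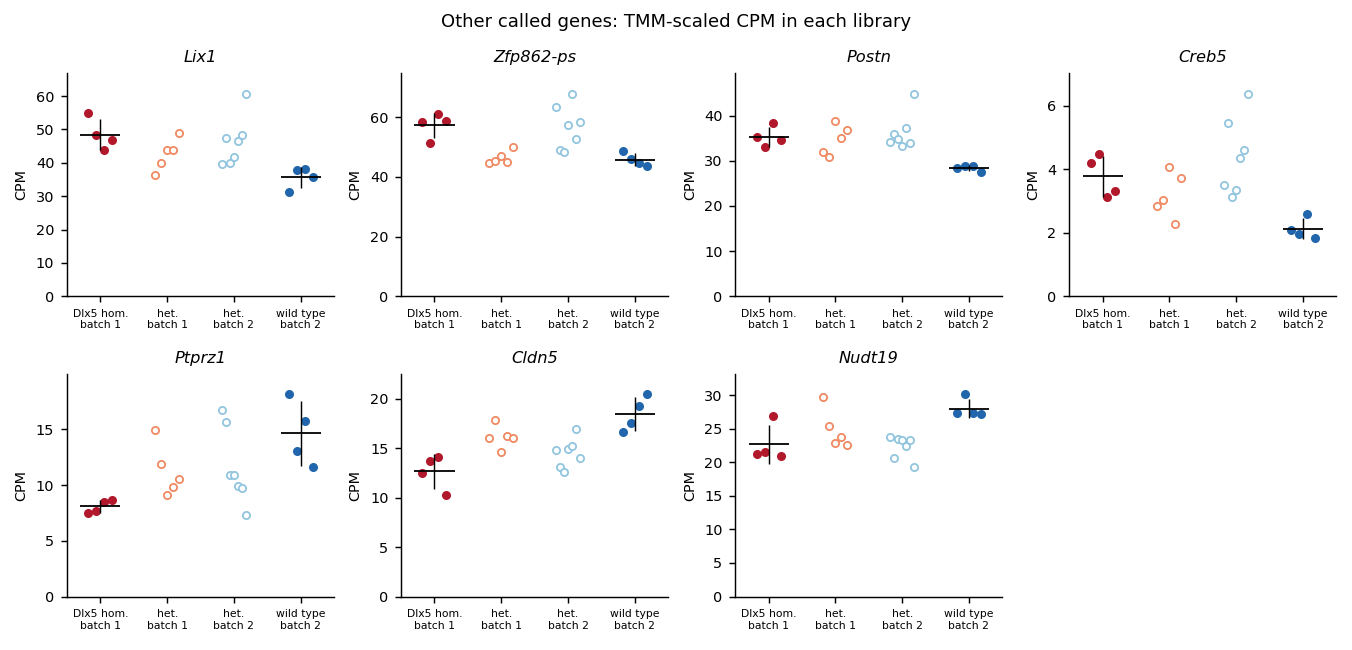
TMM-scaled CPM of the 7 other called genes in each library, in the order Dlx5 homozygous (batch 1), heterozygous in batch 1, heterozygous in batch 2 and wild type (batch 2); lines and bars are mean and SD of the groups of 4 libraries. Cldn5, Ptprz1 and Zfp862-ps separate Dlx5 homozygous from heterozygous libraries of batch 1, whereas for Creb5, Postn, Lix1 and Nudt19 wild type stands apart from the heterozygous libraries of batch 2. Of all genes, 2.94% lie above and 2.82% below in the first way, and 0.503% each way in the second. The batch term rests on these heterozygous libraries, so both contrasts are parts of the tested difference and no separate evidence for the calls.

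Because the groups share no batch, the subtracted batch effect is part of every fold change. Its median size was 0.068 on the log2 scale, against a median size of 0.124 for the difference between genotypes with the batch term and 0.091 without it. The median SE was 0.133 for the genotype difference and 0.092 for the batch effect. For 7 of the 8 called genes the batch coefficient had the sign opposite to the genotype difference, and its sign was the same in all 3 heterozygous groups for 7 of them, against 33.79% of all genes. The share of all genes with opposite signs was not counted. Because the coefficient is subtracted, calling genes by the adjusted difference favours opposite and steady batch signs. These counts are therefore no separate evidence for the calls. The batch effect itself was called for 5 genes (0.0345%), which were Ftl1-ps2, Mpo, Mpeg1, Gm15545 and Ush1c, and none of them was called between genotypes. All 8 called genes kept their sign without the batch term, and 2 of them, Dlx6os1 and Ptprz1, stayed called. All 8 also separated the 4 and 4 libraries as measured, which 4.6% of all genes did.

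**Figure D3:**
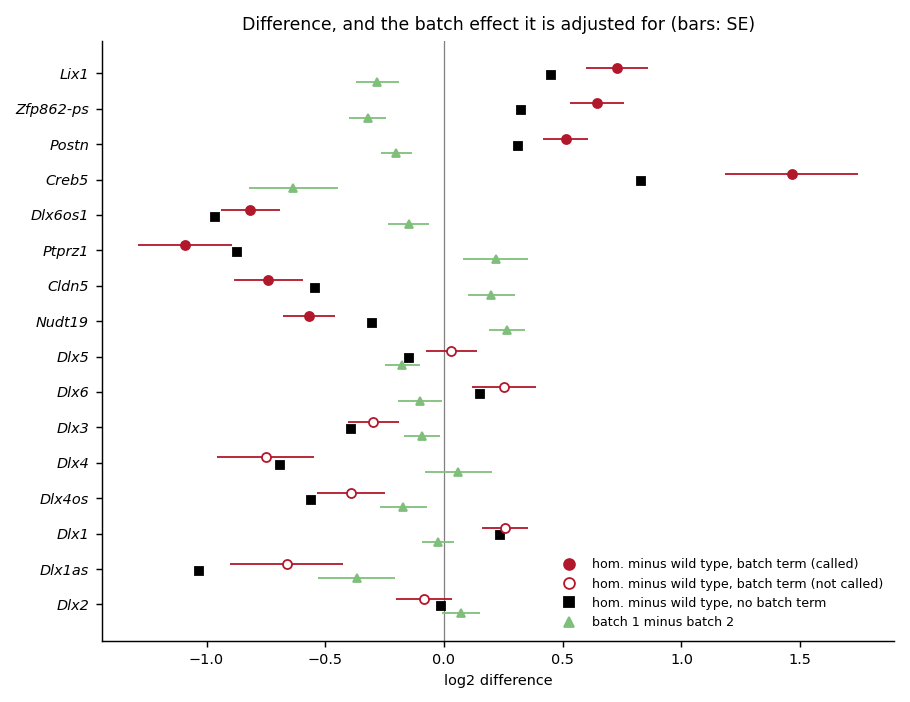
Log2 difference between Dlx5 homozygous and wild type libraries with the batch term (circles with SE, filled where called) and without it (squares), and the fitted batch effect, batch 1 minus batch 2 (triangles with SE), for the called genes and the Dlx family. For Creb5 the difference is 1.46 with and 0.83 without the batch term, and for Dlx6os1 it is −0.82 and −0.96.

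Of the 8 called genes, 4 lay on chromosome 6, which carries Dlx5 and 4.81% of the genes tested. Besides Dlx6os1, these were Ptprz1 at 16.0 Mb, Zfp862-ps at 41.6 Mb and Creb5 at 46.4 Mb from Dlx5. Of the 61 genes with an unadjusted p under 0.001, 10 lay on this chromosome (16.39%), and of the 382 under 0.01 there were 26 (6.81%). Within 10 Mb of Dlx5, 10 of 42 genes had an unadjusted p under 0.05 (23.81%), against 9.86% of genes on other chromosomes. The share did not fall steadily with distance, at 9.26% from 10 to 25 Mb, 14.29% from 25 to 50 Mb, 14.22% from 50 to 100 Mb and 7.78% beyond 100 Mb. On this chromosome lay 8 of the 38 genes called by DESeq2 and 5 of the 17 called by limma voom. With edgeR there were 3 of 8 called genes without the batch term and 1 of 3 with the 8 libraries alone. Without the Kat6a -/- group there were 3 of 7, without the Kat6a +/- group 3 of 3 and without the Dlx5 +/- group 1 of 1. Without the double heterozygous group no gene was called on any chromosome. With single libraries left out, no gene was called on any chromosome without double heterozygous replicate 1 or Kat6a +/- replicate 4. The count was 1 of 1 without Dlx5 -/- replicate 4, wild type replicate 2, Dlx5 +/- replicate 4 or double heterozygous replicates 2 or 3. It was 1 of 2 without Dlx5 -/- replicate 1. It was 2 of 2 without Dlx5 -/- replicate 2, wild type replicates 1 or 4, Dlx5 +/- replicate 2 or double heterozygous replicate 4. It was 3 of 3 without Kat6a +/- replicate 2. Leaving out any other library gave 3 to 5, among 5 to 16 called genes. The sources used here do not say from which strain the sequence around the mutant allele comes, and its part in these values was not tested.

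Of the 10 tested genes on each side of Dlx5, Dlx6os1 was the one called. Asb4, a subunit of ubiquitin ligases, had 78.4 to 111.5 CPM in Dlx5 -/- and 131.6 to 177.4 CPM in wild type libraries, but its batch coefficient had the same sign (−0.32), and the log2 fold change was −0.38 with the batch term (SE 0.17, edgeR adjusted p = 0.483). Dync1i1, a dynein intermediate chain, was at 0.807 to 0.990 CPM in Dlx5 -/- and 1.18 to 1.96 CPM in wild type libraries (log2 fold change −0.54, SE 0.35, edgeR adjusted p = 0.65). As measured, Mios, Ica1 and Ndufa4 also lay below all wild type libraries, and no neighbour lay above them. Their log2 fold changes with the batch term were −0.16 for Mios, −0.04 for Ica1 and −0.22 for Ndufa4. Of all genes, 2.29% lay below in this way. Slc25a13, a mitochondrial carrier, overlapped fully, at 105.9 to 112.4 CPM in Dlx5 -/- and 99.1 to 114.4 CPM in wild type libraries.

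**Figure D4:**
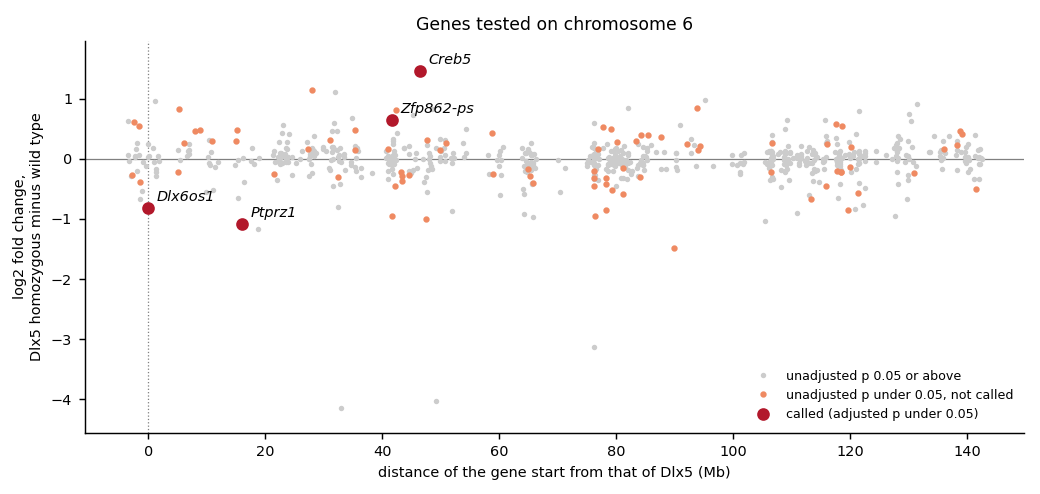
Log2 fold change of Dlx5 homozygous against wild type libraries for the 698 genes tested on chromosome 6, by the distance of each gene's start from that of Dlx5 in Mb. The 4 called genes are Dlx6os1, Ptprz1, Zfp862-ps and Creb5, all within 46.4 Mb of Dlx5.

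Genes of lower jaw identity were not called, though several stood lower. Of 18 mandibular factors tested, 11 had a negative and 7 a positive log2 fold change (median −0.10), 8 were lower at an unadjusted p under 0.05 (5.29% of all genes), and 2 lay below all wild type libraries as measured (2.29% of all genes). Pitx1, a homeobox gene of the lower jaw and hindlimb, had 49.8, 65.4, 80.1 and 79.0 CPM in Dlx5 -/- libraries, against 93.0, 133.4, 95.4 and 124.6 CPM in wild type libraries (log2 fold change −0.91, SE 0.25, edgeR adjusted p = 0.256). Its groups did not overlap. Hand1, a helix-loop-helix factor of the distal arch, had 30.2, 30.5, 23.1 and 38.0 CPM in Dlx5 -/- and 34.6, 49.9, 43.0 and 46.2 CPM in wild type libraries (log2 fold change −0.71, SE 0.21, edgeR adjusted p = 0.259). Hand2, which in the mouse acts in the distal arch downstream of endothelin, had 76.7, 79.2, 90.1 and 85.2 CPM in Dlx5 -/- and 84.0, 123.8, 108.3 and 119.9 CPM in wild type libraries (log2 fold change −0.37, SE 0.14, edgeR adjusted p = 0.407). The groups overlapped through wild type replicate 1 for both Hand genes.

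Of 11 upper jaw (maxillary) factors tested, 7 were positive and none was called, with a median of 0.015. Meis2, a cofactor of homeodomain proteins, was at 297.8 to 329.4 CPM in Dlx5 -/- and 271.0 to 304.4 CPM in wild type libraries. Upstream of Dlx5, the ligand gene Edn1 had 1.61 to 3.47 CPM in Dlx5 -/- and 2.25 to 3.62 CPM in wild type libraries (log2 fold change −0.83, SE 0.34, edgeR adjusted p = 0.43). Its receptor gene Ednra had 57.0 to 71.8 CPM in Dlx5 -/- and 44.3 to 57.2 CPM in wild type libraries (log2 fold change 0.50, SE 0.13, edgeR adjusted p = 0.226). None of the 12 endothelin pathway genes tested was called, with 7 positive and 5 negative.

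Other signalling lists were also without calls. Of the 15 hedgehog pathway genes 12 were positive (median 0.13), and the forkhead gene Foxf2, a hedgehog target in arch mesenchyme, had 24.7, 33.1, 23.3 and 24.4 CPM in Dlx5 -/- and 16.6, 27.3, 21.4 and 19.4 CPM in wild type libraries (log2 fold change 0.63, SE 0.19, edgeR adjusted p = 0.272). Bone morphogenetic protein genes were evenly split (10 positive and 10 negative of 20), as were Wnt genes (10 and 13 of 23) and FGF genes (10 and 8 of 18). Over all genes, 49.5% were positive and 50.3% negative. Bambi, a decoy receptor of the bone morphogenetic protein pathway, had 47.9 to 50.7 CPM in Dlx5 -/- and 52.6 to 73.7 CPM in wild type libraries (log2 fold change −0.37, SE 0.13, edgeR adjusted p = 0.347). Fgf8, a ligand of the oral ectoderm, had 12.6, 15.9, 27.2 and 20.7 CPM in Dlx5 -/- and 21.6, 22.7, 21.4 and 31.9 CPM in wild type libraries, with Dlx5 -/- replicate 3 within the wild type range.

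Lists of mesenchymal and skeletal genes had positive medians that shrank without the batch term. Of 15 skeletal differentiation genes 12 were positive (median 0.18, and 0.07 without the batch term), Postn being the called one. Of 16 palate mesenchyme regulators 12 were positive (median 0.25, and 0.05 without the batch term). Of 14 arch mesenchyme genes 10 were positive and none was called (median 0.16, and 0.05 without the batch term). As measured none of these 14 lay above and 1 lay below all wild type libraries, against 2.32% and 2.29% of all genes. Of the 15 skeletal differentiation genes 3 lay above and 0 below, and of the 16 palate mesenchyme regulators 2 above and 1 below. Among the uncalled genes nearest the threshold on the higher side were Col1a2 and Col3a1. Col1a2, a chain of type I collagen, had 269.5, 284.8, 211.3 and 251.6 CPM in Dlx5 -/- and 215.4, 247.9, 242.2 and 180.5 CPM in wild type libraries (log2 fold change 0.61, SE 0.13, edgeR adjusted p = 0.0568). The groups overlapped, and the difference was 0.20 without the batch term. Col1a2 lies on chromosome 6, −2.37 Mb from Dlx5. Col3a1, the chain of type III collagen, had 700.7 to 785.3 CPM in Dlx5 -/- and 580.3 to 709.2 CPM in wild type libraries (log2 fold change 0.41, SE 0.08, edgeR adjusted p = 0.0568).

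Lhx6, a LIM homeobox gene of oral mesenchyme, separated the groups as measured. It had 94.6, 92.1, 92.8 and 88.9 CPM in Dlx5 -/- libraries, against 64.0, 82.3, 61.7 and 71.3 CPM in wild type libraries (log2 fold change 0.52, SE 0.14, edgeR adjusted p = 0.243). Tbx15, a T-box gene of craniofacial and limb mesenchyme, was at 1.94 to 3.35 CPM in Dlx5 -/- and 1.00 to 1.73 CPM in wild type libraries, and its log2 fold change of 2.03 (SE 0.45, edgeR adjusted p = 0.0995) was 0.92 without the batch term. The remaining uncalled genes nearest the threshold on the higher side were Apcdd1, Sema6a, S1pr3, Cped1 and Sfrp1. Their log2 fold changes were 0.38 to 0.67, and Cped1 separated the groups as measured (78.4 to 88.9 CPM in Dlx5 -/- and 49.1 to 69.6 CPM in wild type libraries). Cped1 also lies on chromosome 6, 15.1 Mb from Dlx5.

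Epithelial and endodermal genes leaned lower. Of 11 pharyngeal endoderm genes tested 9 were negative and none was called. Their median was −0.57 with the batch term and −0.28 without it, and 8 lay below all wild type libraries after the batch effect was removed, compared with 2 as measured. Over all genes, 5.72% lay below and 6.08% above after that removal, 11.8% in all. Tbx1, a T-box factor of pharyngeal endoderm and mesoderm, had 5.52, 7.13, 9.57 and 6.85 CPM in Dlx5 -/- and 11.1, 10.6, 9.69 and 12.1 CPM in wild type libraries (log2 fold change −0.68, SE 0.20, edgeR adjusted p = 0.263). Pax9, a paired box gene of the pouches and of jaw mesenchyme, went the other way, with 8.996 to 12.6 CPM in Dlx5 -/- and 7.49 to 8.73 CPM in wild type libraries (log2 fold change 0.63, SE 0.18, edgeR adjusted p = 0.255).

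Of 15 surface epithelium genes 13 were negative (median −0.33, and −0.10 without the batch term), and their summed level overlapped, at 579.8 to 637.7 CPM in Dlx5 -/- and 517.1 to 697.2 CPM in wild type libraries. Krt19, a keratin of simple epithelia, had 12.3 to 17.0 CPM in Dlx5 -/- and 16.3 to 20.9 CPM in wild type libraries (log2 fold change −0.78, SE 0.18, edgeR adjusted p = 0.162). The uncalled genes nearest the threshold on the lower side were Crb2, Galk1, Rplp1, Mfge8, Nptx1, Foxi2, Tlx1 and Plvap. Crb2, a polarity gene of epithelia, stood at −0.82 (SE 0.17, edgeR adjusted p = 0.0568) and at −0.27 without the batch term. Mfge8, a secreted protein that links dying cells to phagocytes, separated the groups as measured, with 110.8, 113.4, 108.6 and 116.7 CPM in Dlx5 -/- and 139.6, 132.4, 131.0 and 144.2 CPM in wild type libraries (log2 fold change −0.39, SE 0.08, edgeR adjusted p = 0.0882). Rplp1, a ribosomal stalk protein, also separated them, at 569.9 to 647.2 CPM in Dlx5 -/- and 661.4 to 822.0 CPM in wild type libraries (log2 fold change −0.44, SE 0.09, edgeR adjusted p = 0.0568). Foxi2, a forkhead gene of ectoderm, was at 7.78 to 10.6 CPM in Dlx5 -/- and 10.8 to 15.1 CPM in wild type libraries (log2 fold change −1.08, SE 0.24, edgeR adjusted p = 0.11).

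Of 17 endothelial genes tested 16 were negative, against 50.3% of all genes (median −0.22), Cldn5 being the called one, and 4 lay below all wild type libraries as measured, against 2.29% of all genes. Their summed level was 544.8, 547.2, 539.3 and 543.1 CPM in Dlx5 -/- libraries, against 611.0, 565.7, 618.1 and 567.9 CPM in wild type libraries. The sums did not overlap. Plvap, a protein of endothelial fenestrae, had 48.3, 48.6, 45.2 and 45.2 CPM in Dlx5 -/- and 56.6, 55.8, 58.5 and 56.6 CPM in wild type libraries (log2 fold change −0.41, SE 0.10, edgeR adjusted p = 0.151).

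Markers of other cell types in the dissection were examined next. Of 21 neuron and glia genes tested 19 were negative with a median of −1.62, but the median was 0.30 without wild type replicate 2. The 7 neural crest glia genes tested had a median of −0.55, and −0.35 without that library. Erythroid genes had a median of 0.81, and 0.20 without the batch term, and their summed level overlapped at 2714 to 5464 CPM in Dlx5 -/- and 2263 to 5359 CPM in wild type libraries. The median of the 13 macrophage and leukocyte genes was 0.19 with the batch term and −0.25 without it. Branchiomeric muscle genes were at a summed 114.3 to 123.1 CPM in Dlx5 -/- and 126.5 to 139.0 CPM in wild type libraries, with 8 of 11 negative (median −0.23), and the 6 cardiac muscle genes tested had a median of −0.47. Of the remaining lists, otic and olfactory placode genes had a median of −0.23 (7 of 11 negative, with Eya4 at 0.57, not called), glycolysis and hypoxia genes of −0.13 (12 of 15 negative) and stress and immediate early genes of 0.075 (4 of 10 negative). No marker of any of these lists was at 0 in all 8 libraries. The part of the tissue makeup in the called differences was not tested beyond the covariate for neurons, which includes Ptprz1 itself.

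**Figure D5:**
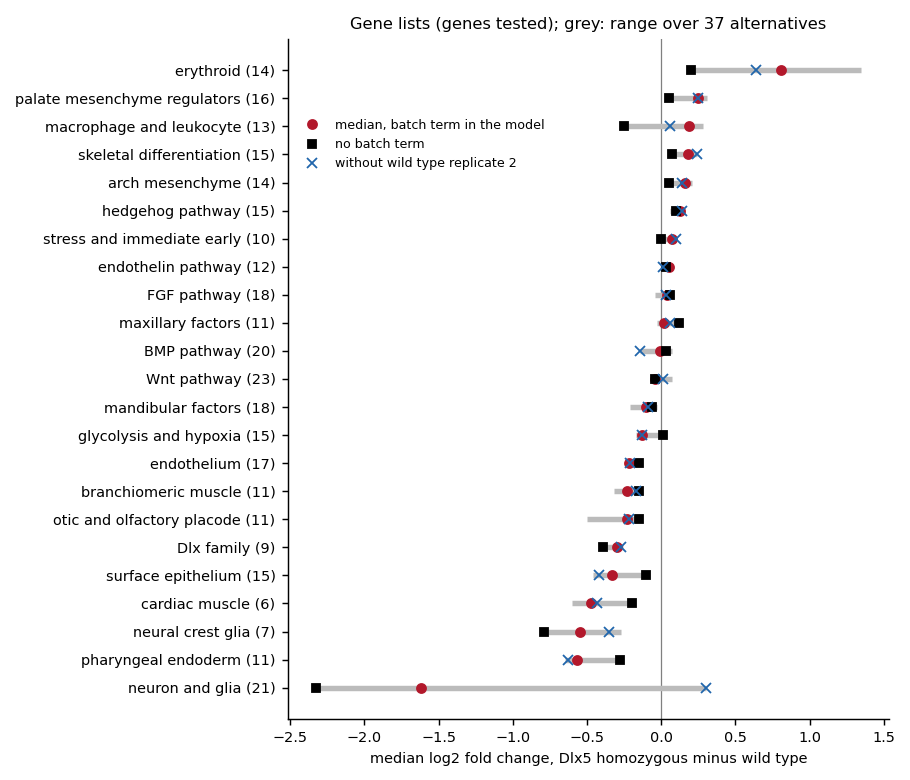
Median log2 fold change, Dlx5 homozygous minus wild type, of each of 23 gene lists (number of genes tested in brackets) with the batch term (circles), without it (squares) and without wild type replicate 2 (crosses); grey bars span the 37 alternatives. Neuron and glia genes move from −1.62 to 0.30 when wild type replicate 2 is left out, whereas endothelium stays between −0.24 and −0.15 and the Dlx family between −0.39 and −0.26.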

How the data were processed

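Libraries were made with an Illumina TruSeq Stranded mRNA kit, per the labels' protocols. CASAVA 1.8.2, featureCounts and the mm10 build are named in the submitters' processing notes; the sources used here do not give the aligner, annotation release or strand setting. The authors deposited raw counts per gene under Entrez identifiers, without normalization or batch correction in the file. Of 27179 entries, 568 had no identifier (0.182% to 0.259% of a library's counts) and were left out. Symbols and GRCm38.p6 positions came from RefSeq, matched for 25275 of 26611 identifiers.

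Genes were kept by edgeR's filterByExpr on the groups (14506 genes). Counts were TMM-scaled and fitted in edgeR 4.0.16 (robust quasi-likelihood, R 4.3.3) on 6 groups and batch over all 24 libraries, with 17 residual degrees of freedom and a common biological coefficient of variation of 0.0896. Adjustment was Benjamini-Hochberg over all genes. CPM values are shown as measured, without batch removal. SEs were derived from the test statistic. Alternatives included DESeq2 1.42.0 and limma 3.58.1 voom. The procedure was tested on simulated data. Between replicates of the 2 groups, chi-square per degree of freedom was 3.55 to 23.8, so none was counted as a duplicate. The design text calls replicates biological without naming their embryos.

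The comparison, the 23 gene lists and the rule for named genes were chosen with earlier results of these data known. The rule names the Dlx family, every called gene, up to 8 uncalled genes per direction nearest the threshold with no overlap after batch removal and at least 1 CPM, the 2 genes with the smallest p in each list, and 10 neighbours on each side of Dlx5. Of the genes called for the batch term, Mpo is named by the rule; Ftl1-ps2, Mpeg1, Gm15545 and Ush1c fall outside it and were named after their values were seen. The values of 2 genes that the rule names are not reported here. Promoter sequences are from RefSeq, GRCm38.p6.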

Additional observations from a re-analysis of the deposited data

Results flagged for a closer look

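Among the named genes, 168 groups of 4 libraries were examined, and in 10 of them 1 library lay so far from the other 3 that its gap, as a share of the group's range, exceeded Dixon's critical value. Chance alone gives about 1 in 20. In Dlx5 -/- libraries, replicate 3 had 26.9 CPM of Nudt19 (others 21.0 to 21.6), 81.5 CPM of Sema6a (others 90.2 to 91.2) and 23.9 CPM of Eya4 (others 29.0 to 29.4). Dlx5 -/- replicate 2 had 33.1 CPM of Foxf2 (others 23.3 to 24.7), and replicate 1 had 1010 CPM of Prrx1 (others 845.2 to 870.8). In wild type libraries, replicate 2 had 30.2 CPM of Nudt19 (others 27.2 to 27.3). Wild type replicate 3 had 1.38 CPM of Pdk4 (others 1.06 to 1.11). Wild type replicate 4 had 9.42 CPM of Etv1 (others 14.7 to 15.5), 31.9 CPM of Fgf8 (others 21.4 to 22.7) and 36.3 CPM of Rpa3 (others 25.7 to 27.3). Of the 8 called genes, Nudt19 is the one with such a library, and it has 1 in each group. Without Dlx5 -/- replicate 3 its log2 fold change was −0.67 (edgeR adjusted p = 0.00957), and without wild type replicate 2 it was −0.54 (edgeR adjusted p = 0.0792).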

How the results depend on the processing

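The count of 8 called genes was 38 with DESeq2, 17 with limma voom, 20 with a neuron score as covariate (all 8 among them), 3 in a fit of the 8 libraries alone (1 shared), 3 without the Kat6a +/- group, 1 without the Dlx5 +/- group and 0 without the double heterozygous group, and it ranged from 0 to 16 when single libraries were left out. RLE scaling gave 8 genes and either other filter 10. Without the batch term it was 8, of which 2 were shared, and the split was 1 higher and 7 lower in place of 4 and 4. The batch effect was called for 27 genes with DESeq2, 50 with limma voom, 11 without a filter, 9 with the neuron covariate, 0 without the Kat6a +/- group, 2 without the Dlx5 +/- group and 1 without the double heterozygous group, and for 0 to 12 with single libraries left out. Same-numbered Dlx5 -/- and wild type libraries correlated at −0.014, 0.137, −0.105 and −0.065, so no steady pairing by number was seen between these groups. The other groups were not checked in this way. Replicate 2 had the highest neuron and glia score of its group in all groups but the double heterozygous. With the replicate number as a block 8 genes were called for genotype (3 shared, 2 on chromosome 6) and 10 for batch. No called gene changed sign in 37 settings, and calls held in 34 of them for Dlx6os1, 23 for Zfp862-ps, 22 for Ptprz1, 17 each for Lix1 and Postn, 14 each for Cldn5 and Nudt19 and 13 for Creb5. Signs reversed for Dlx5 (−0.15 without the batch term or with 8 libraries, −0.02 without the double heterozygous group, −0.02 to 0.09 over the single libraries left out, with 6 below 0), and, both without the batch term and with 8 libraries, for Hbb-bs (−0.03), Mpo (−0.53) and Aldoa (0.01). They reversed too for uncalled neighbours of Dlx5 near 0: for Slc25a13 (0.0), Sdhaf3 (−0.04) and Glcci1 (−0.04) in those same settings, for Sdhaf3 without the double heterozygous group (−0.13), for Glcci1 (−0.02) and C1galt1 (0.0) without the Kat6a +/- group, and for Ica1 without the Dlx5 +/- group (0.06). With single libraries left out the ranges that crossed 0 were −0.03 to 0.13 for Pon2, −0.13 to 0.14 for Sdhaf3, −0.17 to 0.04 for C1galt1, −0.03 to 0.17 for Glcci1 and −0.13 to 0.06 for Ica1. None of these genes was called where its sign reversed; Hbb-bs was called with the replicate block (2.4). The cause of these changes was not tested.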
